A study of Homo sapiens with 6 samples.

Results

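Mutually exclusive exon (MXE) events are splice events in which the mature transcript takes either of a pair of neighbouring internal exons, with the same exon before and the same exon after the pair. The records described here are all 241 of the 1582 event records in the deposited splicing table whose event type is MXE. They fall in 219 gene symbols and hold 238 distinct exon pairs made of 461 distinct exons. The table came from RNA sequencing of SW480 cells, an epithelial line from a human colon carcinoma, with 3 libraries of cells that carried a nonsilencing hairpin (shCtrl) and 3 of cells whose hairpin targets the splicing factor RBM39 (shRBM39). The labels give the genotype of the groups as WT and RBM39 knockdown. The hairpins were delivered by lentivirus and stable clonal lines were selected with puromycin, so that an effect of the selected line and an effect of the hairpin cannot be told apart. The libraries were repeats of each group and are not stated to come from separately made lines, so p-values speak only for these samples.

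The splicing table names its groups only as group 1 and group 2. No label in it ties either name to a hairpin, and its reads were not matched with the gene counts to place the groups. All inclusion levels below therefore keep these names, and none is read as a change on RBM39 knockdown. Gene counts, in contrast, carry the hairpin labels.

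Classical mutually exclusive exons often arose by duplication of an exon, are of like length and sequence, and exchange a short stretch of a protein for a related version of it. Exclusivity is kept by features such as an intron too short to be spliced between the exons, by splice sites of incompatible types, or by decay of transcripts in which both or neither exon breaks the reading frame. RBM39 is an RNA-binding protein of the U2AF65 family that acts in the choice of splice sites.

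Among 41 gene symbols known for mutually exclusive exons, which include PKM, the tropomyosins and the FGF receptors, P4HA2 alone had a listed MXE record. P4HA2 encodes a catalytic alpha subunit of collagen prolyl 4-hydroxylase. None of the 8 genes that the study followed (RBM39, MORC2, CDK5RAP2, PHF8, MARK2, OBSL1, ZNF35 and FRMD8) had an MXE record. The P4HA2 pair is printed because it has the likeness of sequence that marks a duplicated exon, and the 5′ exon lies at chr5:132198321-132198380 and the 3′ exon at chr5:132198206-132198271, both on the minus strand of GRCh38. In all sequences here, capitals mark the exon and lower case the 20 intronic bases before it and the 10 after it, in the direction of the transcript.
P4HA2 5′ exon: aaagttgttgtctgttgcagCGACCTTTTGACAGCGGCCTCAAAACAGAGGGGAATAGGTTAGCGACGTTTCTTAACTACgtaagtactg
P4HA2 3′ exon: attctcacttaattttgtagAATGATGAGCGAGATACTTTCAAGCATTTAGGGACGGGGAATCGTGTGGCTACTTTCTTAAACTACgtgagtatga

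The exons of P4HA2 measured 60 and 66 bases, both multiples of 3 and both coding, and they shared 59.1% of bases over the longer exon in a global alignment. This was the highest identity of the 241 pairs, whose median was 44.5%. The intron between them measured 49 bases and was the shortest of all, against a median of 5104 bases and a longest of 71834. No GENCODE v44 transcript carried both exons, while 4 transcripts carried the 5′ exon and 3 the 3′ exon between the same flanks.

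Each level below is the share of the form with the 5′ exon, in the direction of the transcript, after division of the reads of each form by its effective length. The form counted as inclusion was the 5′ exon in all 241 records, as the effective lengths show. Reads on the body of an exon are counted as well as junction reads, so a transcript with both exons adds reads to both forms. For P4HA2 the level in group 1 was 0.912, 1.0 and 0.861, and in group 2 it was 0.739, 0.591 and 0.674. The 5′ exon was thus used more in every group 1 library than in any group 2 library, with a difference of 0.256. The record rests on 81 reads over the 6 libraries, 11 in the shallowest. In the library at 1.0, 0 of 14 reads were of the 3′ form, which allows a share of up to 21.4%. Intervals and limits of this kind cover counting error only.

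P4HA2 was not typical of the MXE records. In 236 of the 241, at least 1 GENCODE v44 transcript carried both exons, and in 214 it carried them as direct neighbours, so most of the listed pairs were not exclusive in the annotation. The 5 without such a transcript were P4HA2, OGDH, the E1 subunit of the 2-oxoglutarate dehydrogenase complex, NAE1, a subunit of the NEDD8-activating enzyme, 1 of the 2 records of HLCS, the biotin ligase, and BRE, a subunit of the BRCA1-A complex. OGDH resembled P4HA2 in its short intron of 122 bases and its pair identity of 53.4%. Its 5′ exon stood at 0.161, 0.201 and 0.042 in group 1 and at 0.291, 0.345 and 0.215 in group 2, which did not overlap. NAE1 had levels of 0.082, 0.110 and 0.123 in group 1 and of 0.080, 0.353 and 0.268 in group 2, which overlapped through a single group 2 library. HLCS and BRE had 1 and 2 reads in their shallowest libraries, too few to place a level.

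**Figure D1:**
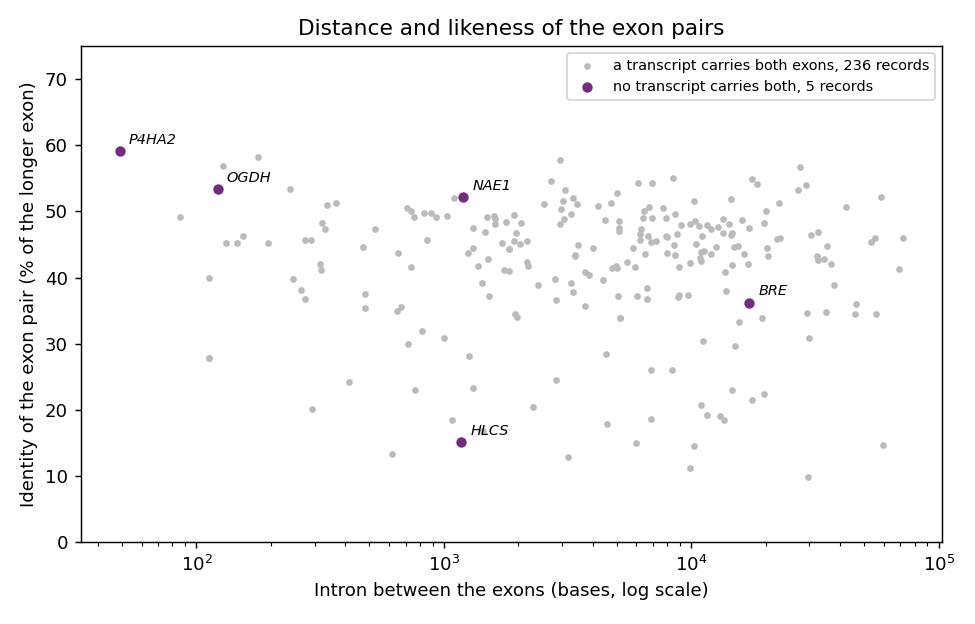
Each point is 1 of the 241 records, with the length of the intron between its exons on a log axis and the identity of the exons as a percentage of the longer exon. The 5 records with no transcript carrying both exons are named, and P4HA2, at 49 bases and 59.1%, lies at the top left corner of the cloud.

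Annotation gave both forms, each with the listed flanking exons, for 48 records. It gave 1 form for 80 records and neither for 113. The splice sites themselves were well known: all exons followed an AG, 456 of the 461 distinct exons preceded a GT and the other 5 a GC. The exons were internal exons of usual size, with a median of 107 bases (range 15 to 955) and a median GC content of 47.4%, and 420 of 461 belonged to the canonical transcript of their gene. By their best annotated use, 366 exons were fully coding, 31 partly coding and 18 untranslated, and 46 occurred only in transcripts without a coding sequence.

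Reading frame separated the pairs further. The lengths of the exons differed by a multiple of 3 in 98 of 241 records (40.7%), and both were multiples of 3 in 53. A frame annotated on both sides was available for 146 records. Here and below, a form kept the frame if any annotated frame of the exon before led without a stop codon into any of the exon after. These frames can come from different transcripts, so the counts are a best case. Both forms kept the frame in 53 records, 1 form kept it in 58, and neither did in 35, where a shift of frame or a stop codon followed with either exon. Where 1 form kept the frame, that form was lower in group 1 in 26 records and higher in 32. Restricted to the 20 of these records with a depth of 20 or more reads throughout, it was lower in 8.

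As a whole the MXE records were shallow. The library with the fewest reads had a median of 13 reads per record, and a depth of 20 or more reads in each of the 6 libraries was reached by 98 records (40.7%). In 94 records the rarer form had under 20 reads in all 6 libraries together, and in 98 records a level stood at exactly 0 or 1 in at least 1 library. The size of the difference followed depth: of the 52 records with a difference of at least 0.3, 4 reached that depth.

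The table holds only events that the authors' own test of group 1 against group 2 had passed, with a difference of at least 0.1 (the members nearest to that limit were EHMT1 at -0.101 and C1orf43 at -0.102). The MXE records were 241 of 4237 MXE events that the authors tested. Differences and calls below therefore describe the selected records and give no new support for them. The levels of the 3 libraries of group 1 did not overlap with those of group 2 in 160 of the 241 MXE records, and 57.6% of all listed records had no overlap. An edgeR quasi-likelihood test of the reads of both forms gave an adjusted p under 0.05, over all listed records, in 79 MXE records, and 37.3% of all listed records passed it. Such records are named called below. The p-values of the edgeR test rest mainly on a spread pooled over the listed records and hardly reflect a record's own spread between libraries. Of the 79, 42 had a lower and 37 a higher level in group 1. Called records numbered 58 among the 98 with at least 20 reads in every library and 21 among the other 143. Without the first library of group 1 the number of calls was 33, and without library 1, 2 or 3 of group 2 it was 44, 50 and 37.

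**Figure D2:**
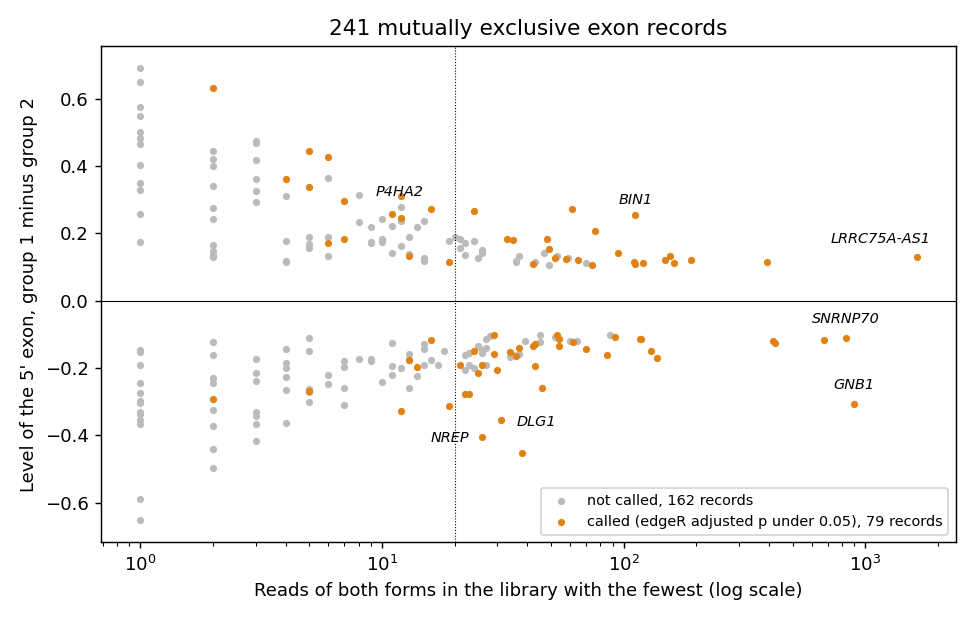
The difference in the level of the 5′ exon between groups is plotted against the number of reads in the shallowest library, on a log axis, with 1 point per MXE record. The band between -0.1 and 0.1 is empty because of the selection, the dotted line marks 20 reads, and the largest differences stand to its left.

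The 5′ exon was lower in group 1 in 128 MXE records and higher in 113, which is 53.1% lower, and 71.3% of the listed records of the other types were lower in group 1. These shares were not tested, and they differ in meaning, since a skipped exon is either in or out while either direction of an MXE record raises an exon. The exon that was lower in group 1 was the longer of the pair in 133 of 238 records of unequal length and the one of higher GC content in 116 of 241. It had the higher share of pyrimidines in the 18 bases before the AG in 107 of 205 records with unequal shares.

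The named records come first from those with at least 20 reads in every library, no overlap and a call, which were 51 records, of which group 1 had the lower level in 29 and the higher in 22. For each direction the 6 with the largest difference are given, with 1 record per gene and direction. Exons of SNHG1, DLG1, BIN1 and STRADA are printed, as pairs with large differences whose exons differ in kind. SNHG1, a long non-coding RNA that hosts small nucleolar RNAs in its introns, gave a record in each direction through a shared exon. Its exons lie on the minus strand at chr11:62855133-62855216 (84 bases), chr11:62854888-62854938 (51 bases) and chr11:62854519-62854551 (33 bases).
SNHG1 84-base exon: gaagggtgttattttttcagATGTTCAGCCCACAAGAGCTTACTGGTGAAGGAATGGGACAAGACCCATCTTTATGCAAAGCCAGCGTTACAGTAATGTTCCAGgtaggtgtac
SNHG1 51-base exon: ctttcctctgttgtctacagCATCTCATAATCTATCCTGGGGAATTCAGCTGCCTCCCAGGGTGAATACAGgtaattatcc
SNHG1 33-base exon: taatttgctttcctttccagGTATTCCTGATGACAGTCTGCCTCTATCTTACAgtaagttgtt

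In the first SNHG1 record the 51-base exon was set against the 33-base exon that follows it. The level of the 51-base exon was 0.284, 0.319 and 0.487 in group 1 and 0.821, 0.849 and 0.780 in group 2. In the second the 84-base exon was set against the same 51-base exon, and its level was 0.733, 0.688 and 0.483 in group 1 and 0.351, 0.314 and 0.422 in group 2. Both records thus had less of the 51-base exon in group 1, by 0.454 and 0.272, and the groups overlapped in neither. The records share the reads of that exon and are not independent. GENCODE v44 held 30 and 35 transcripts with both exons of the first and of the second pair.

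DLG1, a scaffold protein of cell junctions and polarity, had the largest difference of the named records with 2 fully coding exons. Its exons lie on the minus strand at chr3:197076586-197076685 (100 bases) and chr3:197075837-197075870 (34 bases). Neither length is a multiple of 3, and either exon alone kept the annotated frame.
DLG1 5′ exon: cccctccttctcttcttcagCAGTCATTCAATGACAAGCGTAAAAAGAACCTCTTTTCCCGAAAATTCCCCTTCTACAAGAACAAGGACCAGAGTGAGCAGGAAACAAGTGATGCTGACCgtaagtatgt
DLG1 3′ exon: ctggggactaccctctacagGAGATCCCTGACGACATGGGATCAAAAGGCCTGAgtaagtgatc

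The 100-base exon of DLG1 was at 0.370, 0.341 and 0.487 in group 1 and at 0.718, 0.757 and 0.790 in group 2. The difference of 0.356 exceeded the spread in either group. NREP, a small protein of neuronal regeneration, had a larger difference of 0.405 between an untranslated exon of 44 bases and a partly coding exon of 61 bases. The level of its 44-base exon was 0.207, 0.125 and 0.342 in group 1 and 0.594, 0.590 and 0.705 in group 2.

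GNB1, a beta subunit of heterotrimeric G proteins, had by far the most reads of the named records with large differences, 9966 over the 6 libraries. The untranslated exon of 49 bases stood at 0.202, 0.181 and 0.222 in group 1 and at 0.568, 0.559 and 0.395 in group 2. The groups did not overlap, and the third library of group 2 lay apart from the other two. ABI1, an adaptor in the WAVE actin-regulatory complex, used its 177-base exon at 0.216, 0.248 and 0.314 in group 1 and at 0.618, 0.414 and 0.576 in group 2, with either exon keeping the frame. NENF, a secreted neurotrophic factor, had levels of 0.380, 0.205 and 0.386 in group 1 and of 0.564, 0.605 and 0.582 in group 2. In all 6 of these records every group 1 library lay below every group 2 library.

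BIN1, a membrane-shaping BAR-domain protein with many splice forms, had the most reads, 881, of these 6 records with a higher level in group 1. Its exons lie on the minus strand at chr2:127057473-127057601 (129 bases) and chr2:127051154-127051243 (90 bases). STRADA, a pseudokinase that activates the kinase LKB1, had exons on the minus strand at chr17:63726638-63726695 (58 bases) and chr17:63714006-63714108 (103 bases).
BIN1 5′ exon: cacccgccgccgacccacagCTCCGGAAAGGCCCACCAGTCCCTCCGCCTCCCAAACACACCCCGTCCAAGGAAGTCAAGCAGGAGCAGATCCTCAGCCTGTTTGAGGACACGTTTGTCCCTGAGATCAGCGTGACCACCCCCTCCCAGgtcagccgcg
BIN1 3′ exon: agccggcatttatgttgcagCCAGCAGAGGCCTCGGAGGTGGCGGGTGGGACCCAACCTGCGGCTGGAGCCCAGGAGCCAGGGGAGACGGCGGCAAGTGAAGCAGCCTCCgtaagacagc
STRADA 5′ exon: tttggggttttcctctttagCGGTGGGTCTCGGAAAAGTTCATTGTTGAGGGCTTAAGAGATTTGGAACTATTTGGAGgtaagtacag
STRADA 3′ exon: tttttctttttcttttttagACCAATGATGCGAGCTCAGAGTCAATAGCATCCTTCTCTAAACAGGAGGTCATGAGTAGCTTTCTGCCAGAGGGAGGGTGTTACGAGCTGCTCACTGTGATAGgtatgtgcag

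The 129-base exon of BIN1 was at 0.503, 0.511 and 0.422 in group 1 and at 0.212, 0.240 and 0.221 in group 2. The group 2 libraries lay close together and below all group 1 libraries, with a difference of 0.255. These exons are exons 12 and 16 of the canonical transcript and are not neighbours in it. Both are multiples of 3. The 58-base exon of STRADA was at 0.605, 0.709 and 0.654 in group 1 and at 0.383, 0.471 and 0.492 in group 2, a difference of 0.208. Either exon alone kept the annotated frame.

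AARSD1, a relative of alanyl-tRNA editing enzymes, used its 55-base exon at 0.455, 0.590 and 0.340 in group 1 and at 0.303, 0.213 and 0.0668 in group 2. DTNBP1, which encodes dysbindin of the BLOC-1 complex, used a 23-base exon at 0.457, 0.304 and 0.408 in group 1 and at 0.207, 0.234 and 0.178 in group 2. GOLGA2P5, a pseudogene whose reads can be shared with related copies, had levels of 0.542, 0.383 and 0.376 in group 1 and of 0.323, 0.213 and 0.215 in group 2, and is uncertain for that reason. The spread within groups was wide in these genes, but no library crossed over. When single libraries were left out in turn, AARSD1, ABI1 and GOLGA2P5 were called in 3 of 6 fits, DTNBP1 in 2 and P4HA2 in 1, with a highest adjusted p of 0.109, 0.094, 0.129, 0.117 and 0.155 in that order. The other records above (both of SNHG1, NREP, DLG1, GNB1, NENF, BIN1 and STRADA) were called in all 6. With DESeq2 the calls of AARSD1, ABI1, GOLGA2P5, DTNBP1, P4HA2 and STRADA were lost, with an adjusted p of 0.0661 in STRADA and of 0.107 to 0.163 in the others. OGDH and NAE1, whose levels are given beside P4HA2, were called too, but in 1 and 2 of 6 fits with a library left out. With DESeq2 neither was called, at an adjusted p of 0.206 and 0.200.

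**Figure D3:**
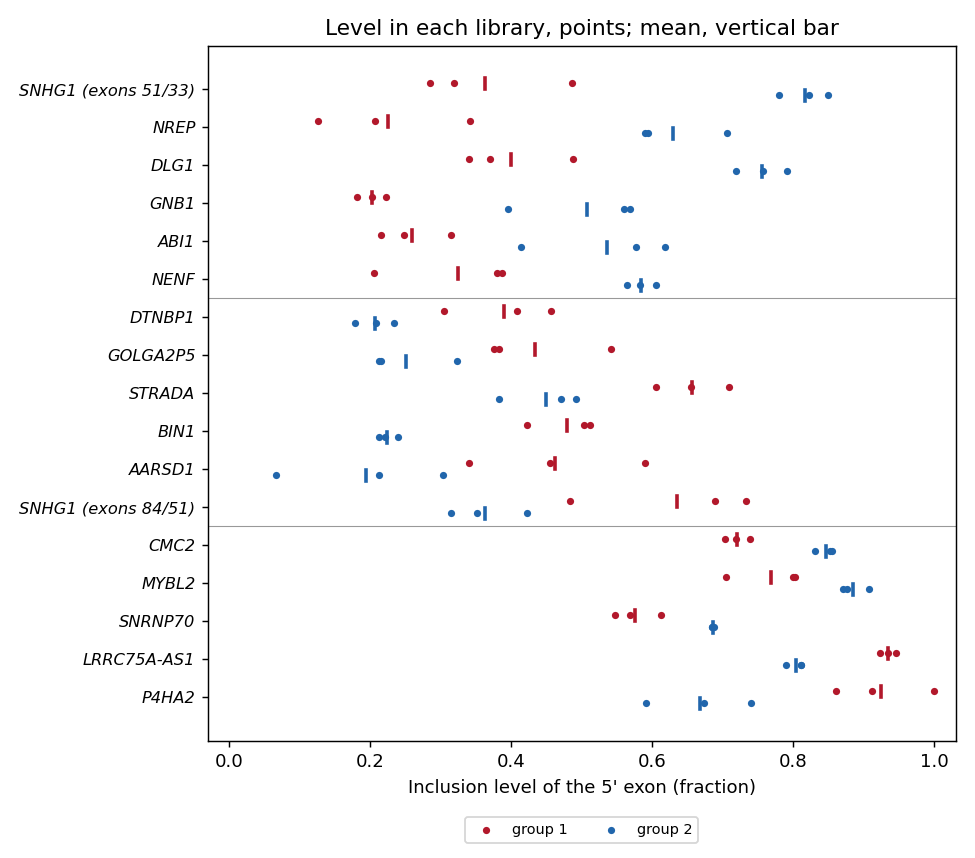
Points give the level of the 5′ exon, as a fraction, in each library of group 1 and of group 2 for the 17 named records, and bars give the group means. Lines divide the 6 records lower in group 1, the 6 higher in group 1, and the rest named for their reads or for P4HA2, and in each record the points of the groups are apart.

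The 5 records with the most reads in their shallowest library were LRRC75A-AS1 (1632 reads), GNB1 (894), SNRNP70 (835), MYBL2 (675) and CMC2 (424). LRRC75A-AS1, a long non-coding RNA, used an 88-base exon at 0.923, 0.934 and 0.945 in group 1 and at 0.790, 0.811 and 0.811 in group 2. SNRNP70, the U1 snRNP protein that helps define 5′ splice sites, used its partly coding exon of 157 bases at 0.568, 0.612 and 0.547 in group 1 and at 0.685, 0.687 and 0.684 in group 2. MYBL2, a transcription factor of the cell cycle, used a 94-base exon at 0.802, 0.705 and 0.800 in group 1 and at 0.908, 0.877 and 0.871 in group 2. CMC2, a mitochondrial protein linked to cytochrome c oxidase assembly, used a partly coding exon of 116 bases at 0.703, 0.739 and 0.719 in group 1 and at 0.831, 0.855 and 0.852 in group 2. All 5 pairs had transcripts with both exons in the annotation, and no library of either group fell within the range of the other.

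Records of other genes for the splicing machinery and for RNA decay were named after their values had been seen. SF1, the protein that first binds the branch point, had a pair of records with the same exons, at chr11:64767192-64767251 (60 bases) and chr11:64766900-64767079 (180 bases) on the minus strand. They differ only in the acceptor of the next exon, by 637 bases. The exon pair is printed because its direction depended on that acceptor.
SF1 5′ exon: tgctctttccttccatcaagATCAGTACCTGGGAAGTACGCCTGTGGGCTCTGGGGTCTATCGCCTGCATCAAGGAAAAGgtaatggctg
SF1 3′ exon: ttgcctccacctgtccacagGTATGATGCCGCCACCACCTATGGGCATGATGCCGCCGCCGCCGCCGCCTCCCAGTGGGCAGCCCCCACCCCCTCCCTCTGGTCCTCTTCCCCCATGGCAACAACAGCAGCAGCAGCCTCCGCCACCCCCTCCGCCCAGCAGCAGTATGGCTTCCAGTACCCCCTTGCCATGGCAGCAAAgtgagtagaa

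With the acceptor farther along the transcript, the 60-base exon of SF1 was at 0.650, 0.550 and 0.576 in group 1 and at 0.696, 0.706 and 0.795 in group 2. With the nearer acceptor it was at 0.355, 0.403 and 0.352 in group 1 and at 0.268, 0.282 and 0.200 in group 2. The exon was thus lower in group 1 in the first record and higher in the second, and the groups overlapped in neither, but the second alone was called, with an adjusted p of 0.044 that rose to 0.199 with DESeq2 and passed in 1 of 6 fits with a library left out. UPF3A, a factor of nonsense-mediated decay, had 2 exons of the same length, 107 bases, neither of which alone kept the frame. The level of its 5′ exon was 0.548, 0.494 and 0.5 in group 1 and 0.676, 0.598 and 0.700 in group 2. SNRPA1, a protein of the U2 snRNP, used its 47-base exon at 0.792, 0.659 and 0.637 in group 1 and at 0.485, 0.517 and 0.546 in group 2, where the 47-base form kept the frame and the 103-base form met a stop codon. PRPF39, a U1-associated splicing factor, stood at 0.236, 0.261 and 0.172 in group 1 and at 0.0887, 0.162 and 0.0904 in group 2. CCNL2, a cyclin of splicing kinases, had no overlap between levels of 0.533, 0.446 and 0.605 in group 1 and of 0.768, 0.628 and 0.758 in group 2, but was not called. GAS5, a further host of small nucleolar RNAs, stood at 0.469, 0.552 and 0.498 in group 1 and at 0.348, 0.411 and 0.429 in group 2. With DESeq2 none of UPF3A, SNRPA1, PRPF39 and GAS5 was called, at an adjusted p of 0.129 to 0.201, and with single libraries left out they were called in 1, 1, 2 and 4 of 6 fits.

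No gene had 5 or more MXE records. C1orf43 and MFF had 4 each, AC007277.3 and BTBD16 had 3, 12 genes had 2 and 203 had 1. Of 17 exons that belonged to more than 1 record, 11 moved the same way in all their records, which share reads through that exon. The 4 records of C1orf43 set a 167-base exon against an earlier exon each time, and the 167-base exon was higher in group 1 in all 4, by 0.102 to 0.278. In 3 of them the library at a level of 1.0 had 0 reads of the 167-base form, of 71, 34 and 35 reads, which allows a share of up to 4.23%, 8.82% and 8.57%. All 4 records were called. With DESeq2 those behind 0.278 and 0.102 lost their calls, at an adjusted p of 0.095 and 0.0732. The record behind 0.102 was called in 4 of 6 fits with a library left out.

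MFF, the mitochondrial receptor that recruits the fission GTPase DRP1, had a set of 3 coding exons that formed all 4 records. These exons lie on the plus strand at chr2:227342745-227342819 (75 bases), chr2:227347226-227347384 (159 bases) and chr2:227352514-227352573 (60 bases), all multiples of 3. They are printed because every choice among them kept the frame.
MFF 75-base exon: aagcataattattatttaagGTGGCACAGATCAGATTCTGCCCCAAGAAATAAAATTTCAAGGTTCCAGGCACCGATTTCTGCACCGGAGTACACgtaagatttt
MFF 159-base exon: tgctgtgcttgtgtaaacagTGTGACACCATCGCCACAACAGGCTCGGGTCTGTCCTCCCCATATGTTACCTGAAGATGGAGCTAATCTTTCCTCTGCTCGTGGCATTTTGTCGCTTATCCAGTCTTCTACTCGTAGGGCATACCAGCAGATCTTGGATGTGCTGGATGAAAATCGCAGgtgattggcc
MFF 60-base exon: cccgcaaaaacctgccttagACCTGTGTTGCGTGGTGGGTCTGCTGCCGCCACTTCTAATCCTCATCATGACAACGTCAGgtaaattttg

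The 60-base exon of MFF was higher in group 1 in its 3 records, by 0.192, 0.195 and 0.312, of which the last alone was called, and the 75-base exon was lower in its 2, by 0.192 and 0.312. The 159-base exon was lower against the 60-base exon and higher against the 75-base exon. The record of the 75-base against the 159-base exon was called too, at an adjusted p of 0.046. With a library left out it was called in 1 of 6 fits, and the record behind 0.312 in 4 of 6. With DESeq2 both lost their calls, at an adjusted p of 0.215 and 0.0658 in that order. In the record of the 75-base against the 60-base exon the level of the former was 0.0517, 0.104 and 0.171 in group 1 and 0.748, 0.317 and 0.198 in group 2. The first library of group 2 stood far above the others, and without it the difference was -0.149 in place of -0.312 and the highest adjusted p among the fits with a library left out was 0.108. The differences of the other 3 records without that library were -0.093, -0.126 and -0.124.

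In KIZ, PARPBP and BTBD16 shared exons kept 1 direction. The 63-base exon of KIZ, a centrosomal protein, was higher in group 1 by 0.115 and 0.120 against a 637-base and a 90-base exon, with at least 391 and 149 reads per library. The 171-base exon of PARPBP, which binds PARP1 and restrains homologous recombination, was lower by 0.127 and 0.119, but neither record was called. In BTBD16 a 120-base exon was lower by 0.124 and 0.133 and a 92-base exon higher by 0.124 and 0.191, of which the record behind 0.191 was not called. With DESeq2 the KIZ record behind 0.120 lost its call, at an adjusted p of 0.118. The BTBD16 records behind 0.124 and 0.133 lost theirs too, at an adjusted p of 0.0587 and 0.0777 with DESeq2.

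**Figure D4:**
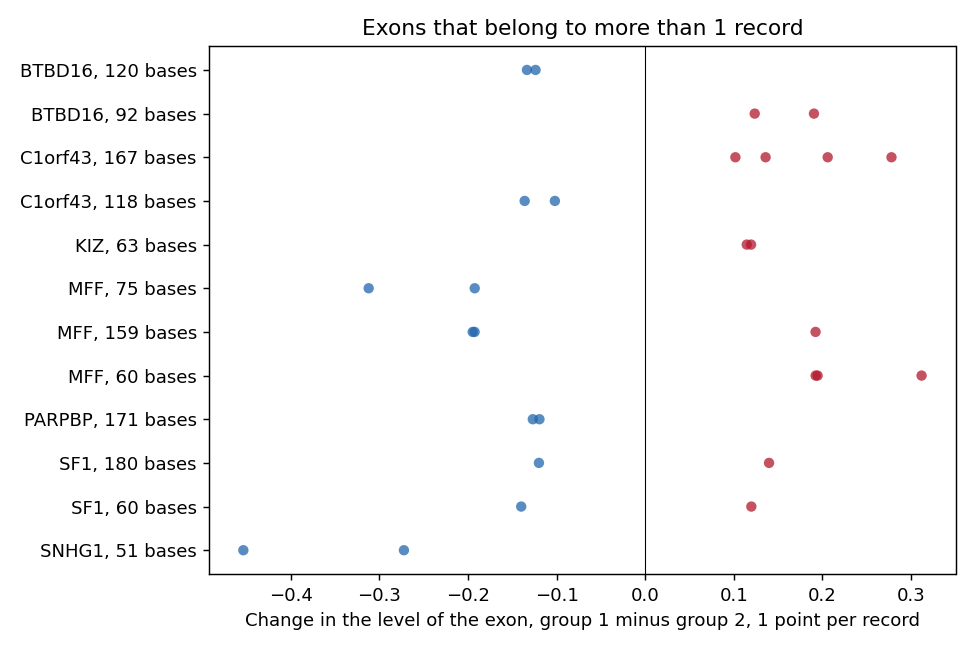
For 7 genes, each point is the change in the level of an exon in 1 record, group 1 minus group 2, with the exon named by its length in bases. The exons of C1orf43, BTBD16, KIZ, PARPBP and SNHG1 and the 60-base and 75-base exons of MFF keep 1 side of 0, and those of SF1 and the 159-base exon of MFF have points on both.

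Many of these exons were listed as skipped exons too. An exon of 72 MXE records (29.9%) was also the target of a skipped exon (SE) record, and in 16 records both were. Of 117 pairs of an MXE exon and an SE record, 103 had the direction that the MXE record implies for that exon. The records count reads of the same exons, so this is no second measurement. In DLG1 the 100-base exon was lower by 0.274 and the 34-base exon higher by 0.316 as skipped exons in group 1. In BIN1, by contrast, both exons were higher in group 1 as skipped exons, the 129-base exon by 0.359 in the most-read of its SE records and the 90-base exon by 0.150. The 51-base exon of SNHG1 was lower by 0.350. Neither exon of GNB1, NREP, NENF, MYBL2, KIZ or P4HA2 had an SE record.

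Gene expression of the hosts could be tested by hairpin, since gene counts had no part in the listing. The libraries held 18042924 to 20428901 counts. RBM39 itself was at 441, 448 and 435 CPM (counts scaled to library size with TMM factors) in shCtrl and at 266, 276 and 292 in shRBM39, a log2 fold change of -0.67 ± 0.04 (SE). The epithelial markers EPCAM, KRT8, KRT18, KRT19, CDH1, VIL1 and CDX2 were all detected, PTPRC had 0 counts in all libraries and COL3A1 at most 3. PECAM1, COL1A1 and ALB stood between 1.44 and 10.2 CPM, here scaled by library totals alone. CDX2, the lowest of the epithelial markers, stood between 4.43 and 23.5 CPM, which overlapped with that range. CDH1, the next lowest, stood between 63.3 and 93.8 CPM.

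All 219 host symbols were in the count table and 218 passed the filter on low counts. Expression of 145 changed, of which 64 rose and 81 fell in shRBM39. The background was 59.1% of all 18243 tested genes, 29.2% higher and 29.9% lower. Host genes had a median of 24.7 CPM, against 11.9 for all tested genes, and whether this plays a part in the count was not tested. The changes were mostly small, with a median absolute log2 fold change of 0.25 in hosts and 0.30 in all genes, and 5 hosts moved by 2-fold or more. With scaling by library totals alone, which moved the median of all genes to -0.14, 40 hosts rose and 108 fell, so the balance of directions depends on the scaling. A bulk library cannot tell fewer cells of a kind from less RNA per cell.

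Among hosts that rose, NMU, a secreted neuropeptide, had 3.13, 3.67 and 2.66 CPM in shCtrl and 10.5, 10.4 and 11.4 in shRBM39. The groups were far apart, with a log2 fold change of 1.77 ± 0.12 (edgeR quasi-likelihood, Benjamini-Hochberg adjusted p = 7.76e-15). GINS1, a subunit of the replicative helicase, rose from 20.1, 24.5 and 22.1 CPM to 49.3, 46.8 and 48.6, a log2 fold change of 1.12 ± 0.06. KCTD20 (0.94), PARPBP (0.89) and FANCD2 (0.83), a central protein of interstrand crosslink repair, followed on the log2 scale, and no library of either group overlapped with the other.

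Among hosts that fell, LOXL4, a lysyl oxidase that crosslinks collagen, had 11.4, 10.4 and 13.1 CPM in shCtrl and 4.08, 3.83 and 4.39 in shRBM39, a log2 fold change of -1.50 ± 0.11. SOBP fell by 1.02, ZNF277, a zinc finger protein, by 0.98, NENF by 0.88 and UBE2Q2P2, a pseudogene that can share reads with its relatives, by 0.81 on the log2 scale. NENF was thus among the named genes of both kinds. All kept their direction when counts were scaled by upper quartile or by library totals.

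The hosts of the named records moved in both directions. SNHG1 fell from 49.9, 56.7 and 53.0 CPM to 33.3, 30.8 and 34, a log2 fold change of -0.70 ± 0.05. GNB1 had 661, 634 and 396 CPM in shCtrl and 343, 337 and 339 in shRBM39. The groups did not overlap, but the third shCtrl library lay well below the others. The log2 fold change was -0.73 ± 0.09 with it and -0.93 without it. In the splicing record of GNB1 the third library of group 2 lay apart, and whether these are the same library was not tested. MYBL2 rose by 0.57 ± 0.04, CMC2 by 0.39 ± 0.05 and SNRNP70 by 0.24 ± 0.04, while NREP fell by 0.39 ± 0.11, LRRC75A-AS1 by 0.35 ± 0.04, AARSD1 by 0.24 ± 0.06 and ABI1 by 0.22 ± 0.05. P4HA2 (0.18 ± 0.06), DLG1 (0.14 ± 0.05) and BIN1 (0.10 ± 0.04) passed the test with small values, but with scaling by library totals P4HA2 stood at 0.06, DLG1 at 0.02 and BIN1 at -0.02, all without a call. STRADA (-0.10 ± 0.06) and DTNBP1 (0.11 ± 0.06) did not pass, but with library totals STRADA stood at -0.22 and passed.

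**Figure D5:**
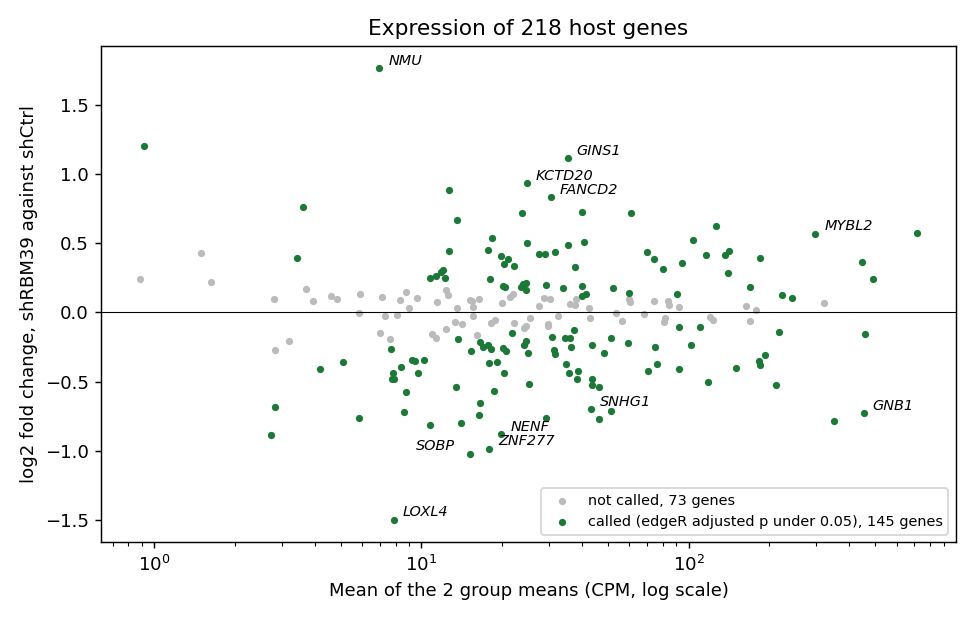
The log2 fold change of shRBM39 against shCtrl is plotted for the 218 tested host genes against their mean level in CPM, on a log axis. The 145 called genes lie on both sides of 0, with NMU at 1.77 and LOXL4 at -1.50 as the extremes.

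By symbol, 3 hosts were zinc finger genes (ZNF561 rose by 0.25, but by 0.12 and without a call with library totals alone, ZNF277 fell, and ZNF215 was at 0.09), and 3 were cytoskeleton, motor or kinase genes with the prefixes KIF, MAP and MYO (KIF24 and MAP2K5 rose, MYO7A fell, and MAP2K5 and MYO7A lost their calls with DESeq2). The 2 with the prefixes searched for RNA-binding or spliceosome genes both rose, SNRPA1 by 0.63 ± 0.04 and PRPF39 by 0.44 ± 0.06, a search that does not take in SNRNP70 or SF1, and the single symbol with a ribosomal prefix, the readthrough RPS10-NUDT3, was at 0.07. Of 9 hosts with a non-coding symbol, 8 were tested. None rose, 5 fell and 3 did not pass, with a median log2 fold change of -0.43 beside -0.02 in all hosts and with 29.9% of all tested genes lower. Of the 8 tested, those that fell were SNHG1, TTN-AS1 (-0.72), TMEM161B-AS1 (-0.58), PSMA3-AS1 (-0.52) and LRRC75A-AS1. The symbols searched leave out, among others, the non-coding hosts GAS5 (-0.53, called) and MIR4435-2HG (-0.09, not called). Hosts with clone names were not searched either. AC007277.3 (-0.42), RP11-326A19.4 (-0.76) and AC093642.5 (-0.34) were called, and CTD-3074O7.11 (-0.02) and GS1-124K5.2 (0.24) were not. Whether the counting used strand is not given in the sources used here, so reads of an antisense RNA and of its partner may not have been told apart.

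Regulators known from classical mutually exclusive exons were measured as genes. Of 17, 11 rose and 5 fell in shRBM39, and CELF1 did not pass, beside the same 59.1% of all genes. PTBP1, which represses exon 9 of PKM among others, was at 152, 156 and 152 CPM in shCtrl and at 228, 231 and 224 in shRBM39, a log2 fold change of 0.57 ± 0.04. Its paralogs PTBP2 and PTBP3 rose by 0.53 ± 0.14 and 0.50 ± 0.06. HNRNPM (0.54), HNRNPA2B1 (0.47), SRSF3 (0.46), SRSF1 (0.30), HNRNPH1 (0.30) and HNRNPF (0.27) rose as well, as did MBNL1 (0.15) and RBFOX2 (0.11), but with library totals alone MBNL1 stood at 0.03 and RBFOX2 at -0.02, both without a call. MBNL2, a muscleblind splicing regulator, fell from 24.8, 23.9 and 24.7 CPM to 11.1, 10.3 and 12.2, a log2 fold change of -1.13 ± 0.07. The epithelial regulators ESRP1 and ESRP2 fell by 0.13 ± 0.04 and 0.36 ± 0.05, QKI by 0.52 ± 0.13, and HNRNPA1, whose many processed copies can share its reads, by 0.15 ± 0.04. Their part in the inclusion levels was not tested.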

How the data were processed

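The MXE records, the lists and the named genes were chosen with earlier results of these data known. mRNA was sequenced from stranded libraries of 3 shCtrl and 3 shRBM39 samples, and columns named NC were read as shCtrl. Per the submitters' processing notes, Trimmomatic 0.36, STAR 2.5.3a, featureCounts of Subread 1.5.1 and edgeR 3.12.1 were used with GRCh38, and the study's methods name rMATS. The authors deposited raw read counts per gene, RPKM values per gene, and event records with counts of inclusion and skipping reads. The authors' p-values and differences per event hold their own findings and were used only to check that every record lay under 0.05 and at 0.1 or above. The treatment of unique identifiers and of multi-mapped reads is not given in the sources used here.

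The level of each form was calculated again from its reads over its effective length and lay within 0.0005 of the listed level. Starts count from 1. Exons were annotated with GENCODE v44, with sequences from the GRCh38 reference, and AG before every exon was checked. Reads of all 1582 records were fitted with edgeR 4.0.16 (R 4.3.3) with terms for library and form and tested for form by group. Gene counts were tested with edgeR after filterByExpr and TMM scaling, in a model of group alone, and p-values were adjusted after Benjamini-Hochberg (threshold 0.05). Both tests were tested on simulated data.

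Named records were, first, those with at least 20 reads in every library, no overlap and a call, the 6 largest differences per direction with the most-read record per gene, then records of genes known for mutually exclusive exons, the 5 with the most reads in the shallowest library, genes with 5 or more records and the genes the study followed. Named hosts were the 5 called hosts that rose most and the 5 that fell most, with at least 5 CPM and no overlap. Other records in the text were added after their values were seen. Alternatives were DESeq2 1.42.0, limma 3.58.1 on log2(RPKM + 1), other scalings, filters and thresholds, a replicate block, levels without the length correction or from pooled reads, and each library left out. Some results are not reported here.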

Additional observations from a re-analysis of the deposited data

How the results depend on the processing

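The number of called MXE records, 79, was 19 with DESeq2, 35 at an adjusted p under 0.01 and 33 to 55 with a library left out. It was 80 over the fewer records tested with at least 20 reads in every library and 79 with no filter. The cause of the lower number with DESeq2 was not tested. Records lower in group 1 numbered 57 of 98 with at least 20 reads in every library, which is 58.2% beside 53.1%, and 125 to 130 in the other settings. Called hosts numbered 118 to 148 and called regulators 13 to 17 over the alternatives. The share of called hosts that rose was 44.1%, and it was 27% with library totals alone and 28.8% with limma on log2(RPKM + 1). With a replicate block 146 hosts and 16 regulators were called, but same-numbered libraries did not deviate together (correlations of 0.006, -0.028 and 0.0001), so the numbers do not pair them. No paired analysis was possible for the splicing table because its libraries carry no replicate labels. BIN1 turned to -0.0191 and RBFOX2 to -0.0161 with library totals alone, and BIN1 to -0.0185 and RBFOX2 to -0.0138 with limma on log2(RPKM + 1). Of the differences of the 17 named records, 135 of 136 alternative values stayed within 1 SD and none changed sign, the exception being LRRC75A-AS1 at 0.109 without the length correction. Records under 20 reads limit what can be placed, and groups of 3 are too small for a search for single outlying libraries.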

Other observations

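CDC25B and CDC25C, phosphatases of the cell cycle, were hosts whose expression did not pass the test, at 0.02 and 0.07 on the log2 scale. TTN-AS1, with a difference of 0.576, rested on 12 reads in all. Exons in more than 1 record did not always keep their direction at low depth: the 483-base exon of TRMT2B was higher by 0.294 in 1 record and lower by 0.416 in another, with 3 reads in the shallowest library of each, and the 157-base exon of UBE2Q2P2 was higher by 0.201 and lower by 0.186, with 4.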
